A study of Rattus norvegicus with 60 samples.

Results

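The delayed response of the rat retina to ischemia-reperfusion (IR) injury was measured as the change of the IR effect on microRNAs (miRs) between 2 h and 24 h of reperfusion. The IR effect is the difference between IR and sham control at one time, and its change is the effect at 24 h minus the effect at 2 h. The comparison rests on 24 of the 60 arrays of the series, chosen by their labels alone, with 6 rats in each of 4 groups (IR 2 h, sham control 2 h, IR 24 h and sham control 24 h). All rats were males of the Long Evan’s hooded strain, of an age not given in the sources used here, and each array was hybridized with total RNA of 1 rat's whole retina. In IR rats the pressure in the eye was held at 110 mmHg for 60 min by a saline reservoir connected to the anterior chamber, and was then released. Sham control rats had the same anesthesia and surgery, with no rise in pressure. Whole retina mixes all cell types, so fewer cells of a type and less RNA per cell cannot be told apart in any value below.

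MiRs are short RNAs cut from a hairpin precursor, which base-pair with mRNAs mainly through the seed (bases 2 to 8) and lower translation or stability of those mRNAs. One strand of the hairpin, the guide, is usually kept, and the other, the passenger, is marked with an asterisk in the older names used by this array. In the retina, raised eye pressure stops the blood flow, and release of the pressure is followed over hours and days by inflammation, activation of Müller glia and loss of inner neurons.

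The sequences below belong to 11 of the 15 miRs whose IR effect changed and to 4 miRs that were raised at 2 h or share a seed with one that was. They are shown to compare seeds, because miRs with the same seed pair with overlapping sets of mRNAs. They were copied from RefSeq (build GRCr8) and are written 5′ to 3′ with the seed in capitals. First stand 7 miRs whose effect rose from 2 h to 24 h.
miR-21: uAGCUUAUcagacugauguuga
miR-146b: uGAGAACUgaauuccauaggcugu
miR-207: cUUCUCCUggcucuccucccuuu
miR-346: uGUCUGCCugagugccugccucu
let-7d*: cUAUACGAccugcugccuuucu
miR-291a-3p: aAAGUGCUuccacuuugugugcc
miR-378*: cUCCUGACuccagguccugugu

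The next 4 are miRs whose effect fell.
miR-376a: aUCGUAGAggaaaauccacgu
miR-148b-3p: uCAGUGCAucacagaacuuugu
miR-652: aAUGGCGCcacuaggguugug
miR-138: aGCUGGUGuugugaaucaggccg

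The last 4 are miR-20a, miR-20b-5p and miR-93 of the miR-17 seed group and the muscle miR-206.
miR-20a: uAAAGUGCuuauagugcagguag
miR-20b-5p: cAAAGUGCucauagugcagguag
miR-93: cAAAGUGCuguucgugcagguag
miR-206: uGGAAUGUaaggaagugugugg

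No pair among the 11 miRs with a changed effect shared a seed. The seed of miR-291a-3p, from a cluster known from rodent embryonic stem cells, holds the bases AAGUGC of the miR-17 group seed moved by 1 base. The G and C content of the 7 sequences that rose ranged from 36.4% to 60.9%, with a median of 50.0%, and that of the 4 that fell ranged from 40.9% to 57.1%, with a median of 49.7%, so the ranges overlapped.

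The arrays of IR 24 h were dimmer than those of the other 3 groups. Brightness is given as the log2 of an array's 75th percentile of signal, taken over 57 miRs with a detection call on every one of the 60 arrays, relative to the mean of these arrays. It was -1.40 ± 0.57 (SD, n = 6) in IR 24 h, against 0.76 ± 0.35 in sham control 24 h, 0.17 ± 0.58 in IR 2 h and 0.13 ± 0.41 in sham control 2 h. The 6 IR 24 h arrays lay below all 18 others, and their differences from sham control 24 h and from IR 2 h each had a p of 0.00216 by an exact two-sided permutation test, the smallest that 6 against 6 allows (0.00866 after adjustment over 12 tests). At 2 h the IR and sham control arrays overlapped and differed by 0.04 (exact permutation p = 0.894). Sham control 24 h arrays were brighter than sham control 2 h arrays by 0.62 (exact permutation p = 0.0173, adjusted 0.0297). The number of detected miRs was 78 to 127 of 350 on IR 24 h arrays and 105 to 229 on the others, and the mean of IR minus that of sham control was -53.5 miRs at 24 h (exact permutation p = 0.00433, adjusted 0.0130) and -2.5 at 2 h (p = 0.913). The signals were scaled for brightness, but the lowest detected signal still differed after scaling, with a mean of 4.67 on the log2 scale in IR 24 h against 2.17 in sham control 24 h. The array slide cannot be told apart from the treatment within a time point, since IR 2 h and IR 24 h arrays shared 3 slides, sham control arrays lay on 5 others, and no slide held both. All 3 scan days held both treatments at both times.

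**Figure D1:**
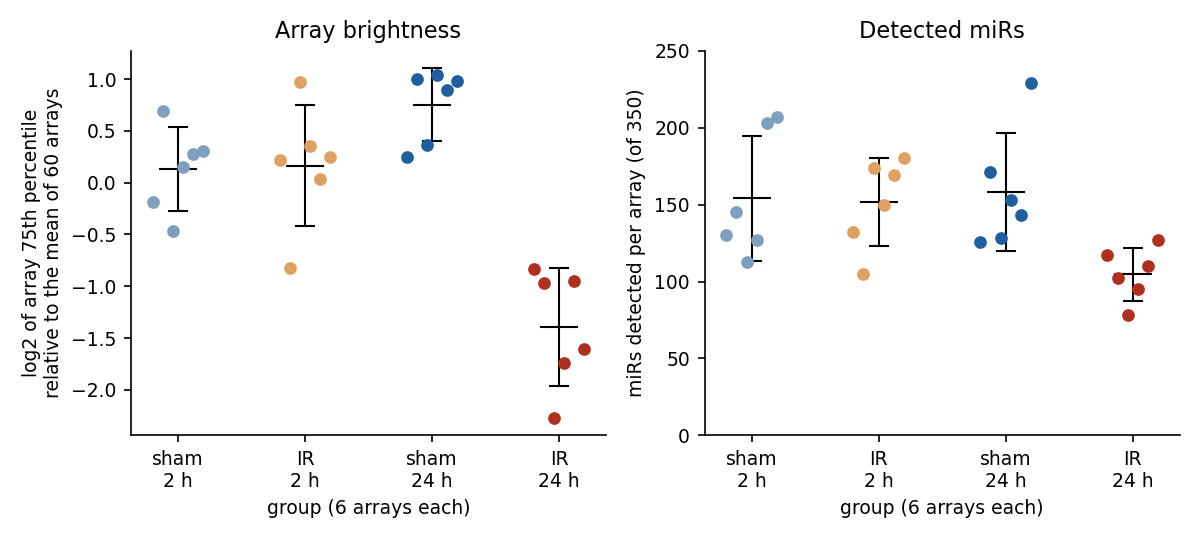
Array brightness (left, log2 relative to the mean of 60 arrays) and miRs detected per array of 350 (right) in the 4 groups; points are arrays, with the mean and SD of 6 in black. The 6 IR 24 h arrays lie below the other 18 in brightness and hold 78 to 127 detected miRs.

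The photoreceptor miRs miR-183, miR-96 and miR-182 and the neuronal miR-124 and miR-9 were detected on all 24 arrays. The blood miRs miR-451 and miR-142-3p were detected on none and miR-223 on 6, and the muscle miR-133a was detected on none, miR-1 on 5 and miR-206 on 23. The summed signal of the 3 blood miRs was 5.20 to 6.89 on the log2 scale in IR 24 h and 4.22 to 5.35 in the other groups, although miR-223, the only one of them detected, reached detection on only 1 of the 6 IR 24 h arrays. Its part in the results was not tested.

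The comparison asked how the miR response to IR differs between the first hours and the next day. Of 159 tested miRs, 15 changed their IR effect from 2 h to 24 h by at least 2-fold with an adjusted p of at most 0.05 (9.43% of the tested miRs), and these are the miRs said to have changed below. In 10 of them the effect rose (6.29%) and in 5 it fell (3.14%). With the adjusted p alone, 18 rose (11.3%) and 20 fell (12.6%). The IR effect itself passed the same 2 thresholds for 8 miRs at 2 h (5.03%), all higher in IR, and for 29 at 24 h (18.2%), 19 higher (11.9%) and 10 lower (6.29%). Sham control retinas at 24 h and 2 h differed for 0 miRs in limma (0%; 6 by adjusted p alone, 3.77%, and 32 at an unadjusted p under 0.05, 20.1%). IR retinas at 24 h and 2 h differed for 19 (11.9%). The split between rises and falls depended on the scaling, with 8 and 15 when the 75th percentile was taken over all miRs, 8 and 24 with quantile normalization, 4 and 0 with normexp background correction, and 2 and 140 with no scaling. The median change over the 159 miRs was -0.17 on the log2 scale as reported and moved to -0.42, -0.33, 0.81 and -2.16 under the same 4 settings, so each change is to be read relative to that level. All 6 IR 24 h arrays lay above the other 18 for 10 of the 159 miRs (6.29%) and below them for 13 (8.18%).

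**Figure D2:**
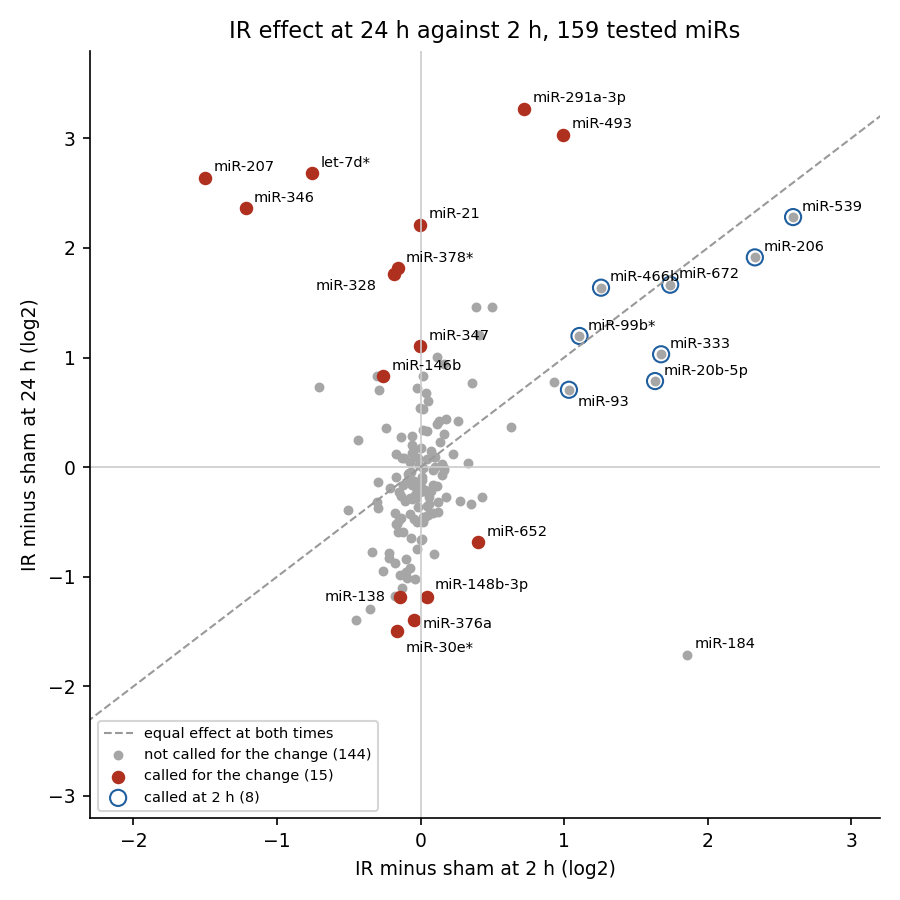
IR minus sham control on the log2 scale at 2 h (horizontal) and at 24 h (vertical) for the 159 tested miRs; red points are the 15 miRs with a changed effect, blue rings the 8 miRs raised at 2 h, and the dashed line marks equal effects. The 10 rises lie above the line and the 5 falls below it; under normexp background correction, where the median change of all 159 is 0.81, the changes of the 5 are above 0 and none passes.

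Of the 15 miRs, 4 were detected on all 24 arrays, and all 4 rose: miR-21, miR-146b, miR-328 and miR-347. Among the 72 miRs detected on all 24 arrays, the median change was -0.00 on the log2 scale and 61 changed by less than 0.5 in either direction. By the adjusted p alone, 11 of the 72 rose and 2 fell.

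The clearest of the late responses was that of miR-21, a miR of growth and wound responses that is raised in many injured tissues (probe target at chr10:74864553-74864572 of build rn4, as the array annotation gives it). On the log2 scale its signal was 7.96, 8.09 and 8.19 (lowest, median and highest of 6 arrays) in sham control 2 h, 7.96, 8.10 and 8.19 in IR 2 h, 8.33, 8.41 and 8.76 in sham control 24 h, and 10.53, 10.70 and 11 in IR 24 h. The groups at 2 h covered the same range, and every IR 24 h array lay above all other arrays. The IR effect was -0.00 ± 0.16 (SE) at 2 h and 2.21 ± 0.16 at 24 h, and its change was 2.21 ± 0.23 (95% interval 1.75 to 2.68, adjusted p = 8.69e-11 in limma). Sham control 24 h arrays also lay above all sham control 2 h arrays, by 0.42 ± 0.16 (adjusted p = 0.153). The change was 2.07 to 2.31 on the 3 scan days taken separately, where day 3 (2.31) held 1 IR 24 h and 1 sham control 24 h array. It was 1.98 ± 0.28 with array brightness as a covariate (adjusted p = 5.49e-07).

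MiR-146b, induced by inflammatory NF-κB signaling and known to restrain it, rose less (chr1:251558064-251558084). Its log2 signal was 5.47, 5.62 and 5.89 in sham control 2 h, 5.14, 5.40 and 5.58 in IR 2 h, 5.16, 5.36 and 5.67 in sham control 24 h, and 6.06, 6.13 and 6.55 in IR 24 h. Again every IR 24 h array lay above the other 18. The IR effect went from -0.26 ± 0.12 at 2 h to 0.83 ± 0.12 at 24 h, a change of 1.09 ± 0.17 (0.75 to 1.43, adjusted p = 3.77e-06). The effect at 24 h alone was below 2-fold, so that miR-146b passed both thresholds for the change only. It was 1.04 ± 0.21 with brightness as a covariate (adjusted p = 0.000569). It was below 2-fold with slide as a block (0.85, adjusted p = 0.000299), with the percentile over all miRs (0.81), with quantile normalization (0.91) and in the authors' table (0.76). With normexp background correction it was 1.09, with an adjusted p of 0.0974, where the median over all 159 miRs was 0.81.

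MiR-328, a brain miR known to target the mRNA of the secretase Bace1, had a log2 signal of 7.33, 7.99 and 8.15 in sham control 2 h, 7.25, 7.54 and 8.59 in IR 2 h, 6.78, 7.23 and 7.64 in sham control 24 h, and 8.52, 8.92 and 9.34 in IR 24 h. The IR 24 h arrays lay above both sham control groups and overlapped IR 2 h through 1 array. The change was 1.95 ± 0.38 (1.19 to 2.70, adjusted p = 0.000149). That IR 2 h array, replicate 2, was the dimmest of its group, with a brightness of -0.83. The change of miR-328 was 0.47 with brightness as a covariate (adjusted p = 0.440).

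MiR-347 had a log2 signal of 5.44, 5.94 and 6.4 in sham control 2 h, 5.57, 5.98 and 6.53 in IR 2 h, 5.09, 5.46 and 6.07 in sham control 24 h, and 6.13, 6.58 and 7.23 in IR 24 h. IR and sham control did not overlap at 24 h, but IR 24 h overlapped IR 2 h. The change was 1.11 ± 0.28 (0.54 to 1.67, adjusted p = 0.00251). Sham control 24 h minus sham control 2 h was -0.46 ± 0.20 (adjusted p = 0.188). With brightness as a covariate the change was 0.43 (adjusted p = 0.547). With normexp the change was 1.08 (adjusted p = 0.0974), where the median over all 159 miRs was 0.81. It was below 2-fold with slide as a block (0.86), with the percentile over all miRs (0.83), with quantile normalization (0.88), in the authors' table (0.77) and without IR 24 h replicate 3, the dimmest of the 24 arrays (0.98).

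**Figure D3:**
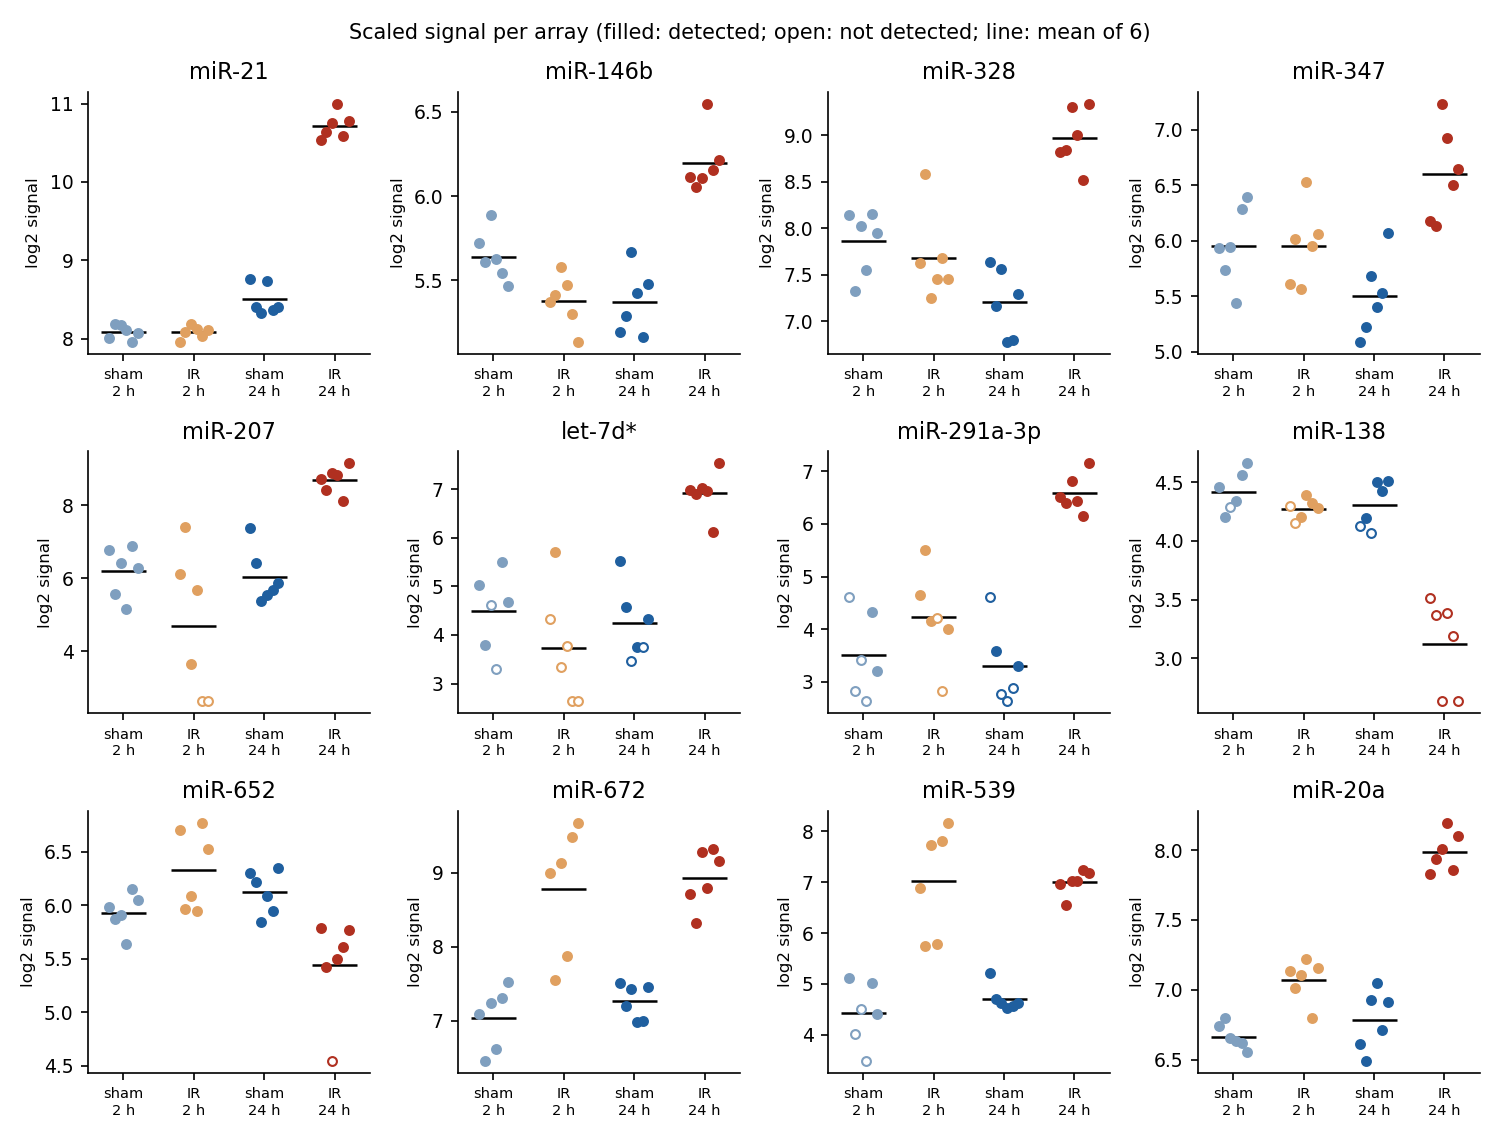
Scaled log2 signal per array for 12 miRs in sham control 2 h, IR 2 h, sham control 24 h and IR 24 h (6 arrays each; filled points detected, open points not detected, lines group means; each panel has its own axis). MiR-21 and miR-20a stand apart in IR 24 h, miR-672 and miR-539 are high in IR at both times, and miR-138 is not detected on any IR 24 h array; its change is above 0 under normexp background correction (1.03, not passing, with a median of 0.81 over all 159 miRs).

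The other 6 rises, those of miR-207, miR-346, let-7d*, miR-291a-3p, miR-493 and miR-378*, had fitted changes of 1.97 to 4.14 with SEs of 0.44 to 1.02, against SEs of 0.17 to 0.38 for the first 4. Each of these miRs went undetected on some of the 24 arrays. MiR-207 had the largest fitted change, which was below that of miR-21 with the floor at the highest detection limit (2.00 against 2.21) and with brightness as a covariate (1.18 against 1.98). Its log2 signal was 5.17, 6.35 and 6.89 in sham control 2 h, 2.63, 4.66 and 7.41 in IR 2 h, 5.36, 5.78 and 7.37 in sham control 24 h, and 8.11, 8.77 and 9.14 in IR 24 h, where 2.63 is the floor to which lower signals were raised. It was detected on all arrays but 2 of IR 2 h, and the IR 24 h arrays lay above the other 18. The IR effect was -1.5 ± 0.72 at 2 h (adjusted p = 0.359) and 2.64 ± 0.72 at 24 h, and its change was 4.14 ± 1.02 (2.10 to 6.19, adjusted p = 0.00183). The effect at 24 h was -0.27 with brightness as a covariate (adjusted p = 0.825) and 2.52 with slide as a block (adjusted p = 0.148). No slide held both treatments among the 24 arrays, so effects at 1 time with slide as a block, here and below, are not comparisons within slides.

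MiR-346, whose gene lies in an intron of the glutamate receptor gene Grid1, had a log2 signal of 5.25, 6.10 and 6.64 in sham control 2 h, 3.02, 4.87 and 6.77 in IR 2 h, 5.31, 5.76 and 6.81 in sham control 24 h, and 7.58, 8.24 and 8.67 in IR 24 h. As for miR-207, IR 2 h was the group with the widest spread and IR 24 h lay above the rest. The change was 3.58 ± 0.89 (1.79 to 5.38, adjusted p = 0.00203). The effect at 24 h was -0.37 with brightness as a covariate (adjusted p = 0.733) and 2.04 with slide as a block (adjusted p = 0.187). On the separate scan days the change of miR-346 ranged from 1.22 to 6.13, and that of miR-207 from 1.10 to 7.21. Both highest values came from day 3, with 1 IR 24 h and 1 sham control 24 h array.

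Let-7d*, the passenger strand of the let-7d hairpin, had a log2 signal of 3.29, 4.65 and 5.50 in sham control 2 h, 2.63, 3.55 and 5.71 in IR 2 h, 3.46, 4.05 and 5.53 in sham control 24 h, and 6.13, 6.97 and 7.53 in IR 24 h. It was detected on all 6 IR 24 h arrays and on 1 IR 2 h array. The change was 3.44 ± 0.78 (1.86 to 5.01, adjusted p = 0.00112). The let-7d guide belongs to the let-7 guide strands, none of which changed.

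MiR-291a-3p had a log2 signal of 2.63, 3.31 and 4.61 in sham control 2 h, 2.83, 4.19 and 5.50 in IR 2 h, 2.65, 3.1 and 4.62 in sham control 24 h, and 6.15, 6.47 and 7.14 in IR 24 h. The IR 24 h arrays, all of which detected it, lay above the other 18, on which it was detected 8 times. IR 24 h was the only group of the series with full detection, and through it miR-291a-3p came to be tested. Its full detection there is therefore no support for the rise. The IR effect was 0.72 ± 0.46 at 2 h and 3.27 ± 0.46 at 24 h, a change of 2.55 ± 0.66 (1.23 to 3.87, adjusted p = 0.00256). MiR-493, of the imprinted cluster on chromosome 6, had IR effects of 0.99 ± 0.42 and 3.03 ± 0.42, a change of 2.04 ± 0.59 (adjusted p = 0.00741), with a log2 signal of 6.29 to 7.14 in IR 24 h against at most 5.47 elsewhere. With slide as a block the change was 1.80 and did not pass (adjusted p = 0.0572). MiR-378*, the passenger strand of a hairpin in an intron of the mitochondrial coactivator gene Ppargc1b, changed by 1.97 ± 0.44 (adjusted p = 0.000780). Its signal was 5.19 to 6.47 in IR 24 h against at most 4.80 elsewhere, yet it was flagged as detected on only 2 of the 6 IR 24 h arrays.

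The IR 24 h arrays, on which these 6 were highest, were also the dimmest. With brightness as a covariate none of the 6 passed, their changes were 0.55 to 1.31 and their adjusted p-values 0.432 to 0.724. With every signal raised to the highest detection limit among the arrays (6.50 on the log2 scale), miR-207 changed by 2.00 ± 0.37 (adjusted p = 5.02e-05) and miR-346 by 1.63 ± 0.29 (adjusted p = 3.64e-05), and the other 4 had values of 0 to 0.48, below 2-fold.

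**Figure D4:**
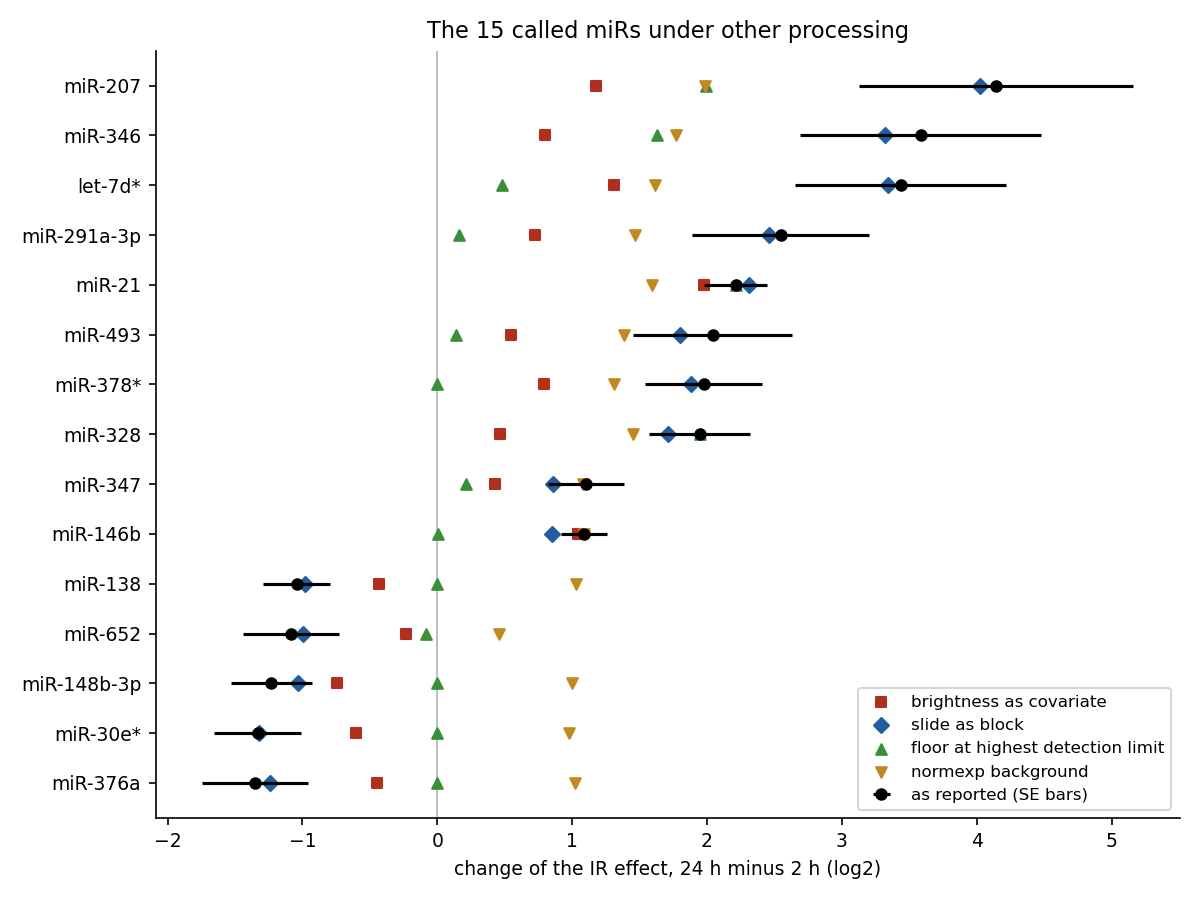
Change of the IR effect from 2 h to 24 h on the log2 scale for the 15 miRs, as reported (black, SE bars) and under 4 other settings (brightness as covariate, slide as block, floor at the highest detection limit, normexp background correction). MiR-21 stays between 1.60 and 2.31 in all 4; the 5 falls are at or near 0 with the high floor and above 0 with normexp, where none passes and the median of all 159 miRs is 0.81.

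The 5 falls were those of miR-376a, miR-30e*, miR-148b-3p, miR-652 and miR-138, whose changes were 0.46 to 1.03 under normexp background correction, where none passed and the median over all 159 miRs was 0.81. For 4 of them no IR 24 h array reached detection, so that the signal there is a bound. The lowest detected signal of the IR 24 h arrays, with a mean of 4.67, was above the sham control 24 h means of these 4 miRs (4.03 to 4.66), so that no bound on the fold can be given for them. Their fitted changes below depend on the floor of 2.63 and are not measured sizes. With the floor at the highest detection limit the changes of these 4 were 0. Of all 159 tested miRs, 40 were detected on no IR 24 h array, and the change was negative for 34 of the 40. The median change over all 159 was itself below 0 (-0.17), and the share of negative changes among the others was not counted.

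MiR-138, a neuronal miR that limits the size of dendritic spines, had a log2 signal of 4.2, 4.40 and 4.66 in sham control 2 h, 4.15, 4.29 and 4.39 in IR 2 h, 4.07, 4.31 and 4.51 in sham control 24 h, and 2.63, 3.28 and 3.51 in IR 24 h. It was detected on 13 of the 18 arrays outside IR 24 h, and all 6 IR 24 h arrays lay below these 18. The fitted change was -1.04 ± 0.25 (adjusted p = 0.00173). Its size was under 2-fold without IR 24 h replicate 3 or 6 (-0.94 each), sham control 2 h replicate 2 (-0.997) or sham control 24 h replicate 6 (-0.999), and with slide as a block (-0.98).

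MiR-30e*, the passenger strand of the miR-30e hairpin, had a log2 signal of 4.27 to 4.83 in sham control 2 h, 4.2 to 4.49 in IR 2 h, 4.53 to 4.78 in sham control 24 h and 2.63 to 4.10 in IR 24 h. The IR 24 h arrays again lay below the other 18, and the fitted change was -1.33 ± 0.32 (adjusted p = 0.00173). The guide miR-30e changed by -0.30 (adjusted p = 0.0227), below 2-fold. MiR-376a, of the chromosome 6 cluster, was at the floor of 2.63 on all 6 IR 24 h arrays and was detected on 4 of 6 arrays of IR 2 h and of sham control 24 h and on 2 of sham control 2 h, with a fitted change of -1.35 ± 0.39 (adjusted p = 0.00741). MiR-148b-3p, of the miR-148/152 family, had signals of 2.63 to 3.98 in IR 24 h against 3.95 to 4.77 in the other groups, which overlapped, with a fitted change of -1.23 ± 0.30 (adjusted p = 0.00173).

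MiR-652 was the only fall that was measured in IR 24 h, on 5 of 6 arrays. Its log2 signal was 5.63, 5.94 and 6.15 in sham control 2 h, 5.95, 6.30 and 6.77 in IR 2 h, 5.84, 6.15 and 6.35 in sham control 24 h, and 4.55, 5.55 and 5.78 in IR 24 h. IR 24 h lay below sham control 24 h and below IR 2 h, and overlapped sham control 2 h. The IR effect was 0.40 ± 0.25 at 2 h and -0.68 ± 0.25 at 24 h, a change of -1.08 ± 0.36 (-1.80 to -0.36, adjusted p = 0.0211). Without IR 24 h replicate 3, where it was not detected, the change was -0.91 (adjusted p = 0.0551), and without IR 2 h replicate 5, or with slide as a block, it was -0.996, just below 2-fold. With brightness as a covariate the changes of the 5 ranged from -0.74 to -0.23, and none passed (adjusted p from 0.289 to 0.808).

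A further group of miRs was already raised at 2 h, and for these no change by 24 h was shown. Of the 8 miRs called at 2 h, 6 were also called at 24 h, which is 75% of the 8 and 20.7% of the 29. MiR-672, on the X chromosome, had a log2 signal of 6.46, 7.17 and 7.52 in sham control 2 h, 7.54, 9.06 and 9.67 in IR 2 h, 6.99, 7.31 and 7.51 in sham control 24 h, and 8.32, 8.97 and 9.32 in IR 24 h. IR and sham control did not overlap at either time. The IR effect was 1.74 ± 0.34 at 2 h (adjusted p = 0.000231) and 1.66 ± 0.34 at 24 h (adjusted p = 6.01e-05), and the interval of the change ran from -1.04 to 0.89.

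MiR-539, of the chromosome 6 cluster, had a log2 signal of 3.49, 4.45 and 5.11 in sham control 2 h, 5.75, 7.30 and 8.16 in IR 2 h, 4.52, 4.63 and 5.23 in sham control 24 h, and 6.55, 7.02 and 7.24 in IR 24 h. Its IR effect at 2 h was the largest of the 8, 2.60 ± 0.37 (adjusted p = 5.62e-07), and was 2.28 ± 0.37 at 24 h, with an interval of the change from -1.35 to 0.73. MiR-539 was detected on 3 of 6 sham control 2 h arrays. It passed at neither time with the floor at the highest detection limit. MiR-206, of skeletal muscle, had effects of 2.33 ± 0.42 (adjusted p = 8.00e-05) and 1.91 ± 0.42 (adjusted p = 0.000160), and its interval ran from -1.61 to 0.78. Another muscle miR, miR-1, was detected on 4 IR 2 h arrays, on no sham control 2 h array and on no IR 24 h array, and miR-133a on none of the 24. The part of muscle RNA in the miR-206 values was not tested. MiR-466b, of a repeated rodent cluster, had effects of 1.26 ± 0.32 (adjusted p = 0.00475) and 1.64 ± 0.32 (adjusted p = 3.26e-05). The intervals of these changes are wide enough to hold a 2-fold change in at least 1 direction, so equal effects at the 2 times are not shown.

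MiR-333 and miR-20b-5p had effects of 1.68 ± 0.39 (adjusted p = 0.00263) and 1.63 ± 0.43 (adjusted p = 0.00603) at 2 h. At 24 h these were 1.03 ± 0.39 (adjusted p = 0.0240) and 0.79 ± 0.43 (adjusted p = 0.0981), and neither change passed (adjusted p = 0.361 and 0.263). The other 2 miRs called at 2 h, miR-99b* and miR-93, had changes of 0.09 ± 0.43 and -0.33 ± 0.34. With brightness as a covariate all 8 passed at 2 h, with effects from 1.03 to 2.59. With slide as a block 4 passed at 2 h, miR-206, miR-539, miR-672 and miR-93, and miR-99b* was not among them. Neither were miR-333, miR-20b-5p and miR-466b (adjusted p = 0.0660, 0.252 and 0.0678). In sham control 2 h, miR-333 was detected on 2 of 6 arrays and miR-20b-5p on 3, with signals down to the floor of 2.63. With the floor at the highest detection limit only miR-206, miR-466b and miR-672 passed at 2 h, and with normexp only miR-206 and miR-672.

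In the miR-17 seed group, known for promoting proliferation, 1 of 4 tested members passed the adjusted p for the change. Of all 159 tested miRs, 38 passed it in either direction (11.3% as rises and 12.6% as falls), a share near that of the group. MiR-20a had a log2 signal of 6.55, 6.64 and 6.80 in sham control 2 h, 6.80, 7.12 and 7.22 in IR 2 h, 6.49, 6.81 and 7.05 in sham control 24 h, and 7.83, 7.98 and 8.20 in IR 24 h. Every IR 24 h array lay above the other 18. The IR effect was 0.41 ± 0.11 at 2 h (adjusted p = 0.00770) and 1.21 ± 0.11 at 24 h (adjusted p = 2.31e-13), a change of 0.80 ± 0.15 (0.49 to 1.11, adjusted p = 0.000149) that was below 2-fold. The changes of its seed mates were -0.85 ± 0.60 for miR-20b-5p, -0.33 ± 0.34 for miR-93 and -0.11 ± 0.11 for miR-106b, none of which passed. The difference between the members was not tested.

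The members of other known groups were read against the 9.43% of all tested miRs that changed and against their median of -0.17 on the log2 scale. No member changed in 13 of 18 lists, and members that passed the adjusted p alone are named after their values were seen. The 3 photoreceptor miRs had changes from -0.17 to 0.28, with miR-183 at 0.28 ± 0.13 (adjusted p = 0.0885) and miR-96 at -0.17 ± 0.16. The 8 let-7 guide strands lay between -0.21 and 0.14, the 3 members of the miR-29 family between -0.24 and 0.32, the 5 miR-30 guide strands between -0.30 and 0.34, the 4 tested of the miR-15/16 family between -0.30 and 0.10, and the 5 tested of the miR-23/27/24 clusters between -0.21 and 0.27. In these sets miR-29a (0.32 ± 0.12, adjusted p = 0.0440) and miR-30e passed the adjusted p alone. The activity-regulated miR-132 and miR-212 had changes of 0.29 and 0.51, with adjusted p-values of 0.152 and 0.134.

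Among 12 tested neuronal miRs 1 fell, miR-138, the median was -0.41, and miR-7a passed the adjusted p alone (-0.47, adjusted p = 0.0289). Only 5 of the 12 were detected on all 24 arrays, and 4 of 13 on the array were detected on no IR 24 h array. The median over all tested miRs not detected on all 24 arrays was -0.42, near that of this list. The brain miR-124 had a change of 0.03 ± 0.16, with an interval from -0.30 to 0.35, and miR-9* one of -0.23 ± 0.16. In the inner retina the 4 miRs of the miR-181 family ranged from -0.58 to -0.02, and miR-181c, at -0.58, passed the adjusted p alone (0.00418). The 5 glial miRs of the miR-125 and miR-99 groups ranged from -0.62 to 0.21, and none passed.

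Injury and hypoxia miRs had 1 rise, miR-21, among 4 tested, and the hypoxia-induced miR-210 had a change of 0.15 ± 0.18 with an interval from -0.21 to 0.51. MiR-210 was lower in sham control 24 h than in sham control 2 h by -0.51 ± 0.13 (adjusted p = 0.0155), and its IR arrays differed by -0.36 ± 0.13 (adjusted p = 0.0181). The p53-induced miR-34a had a change of 0.30 and passed the adjusted p alone (0.0440). Leukocyte and inflammation miRs had 1 rise, miR-146b, among 3 tested, while 4 of 7 on the array were detected on no IR 24 h array. Of 9 vascular and pericyte miRs only miR-143 and the endothelial miR-126 were tested, with changes of 0.03 ± 0.14 and -0.35 ± 0.23, and miR-126 was detected on 1 of 6 IR 24 h arrays against 6 of 6 in the other groups.

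The chromosome 6 cluster had 20 tested of 45 miRs on the array, with a median of -0.32. Its members went both ways, with a rise of miR-493 and a fall of miR-376a, while miR-487b (0.99), miR-136* (-0.85) and miR-495 (-0.92) passed the adjusted p alone, and 35 of the 45 were detected on no IR 24 h array. The best measured members, miR-434 and miR-127, had changes of -0.05 ± 0.12 and -0.24 ± 0.18. Rodent-specific and embryonic-type miRs had 3 rises among 6 tested, miR-207, miR-291a-3p and miR-347, with a median of 0.74. All 6 were called at 24 h, against 18.2% of all tested miRs. Of the 13 on the array, 6 were detected on no IR 24 h array. MiR-291a-3p was tested only through its full detection in IR 24 h, so it is no support in either count. MiR-207 and miR-347 were not called at 24 h with brightness as a covariate (adjusted p = 0.825 and 0.217). The list was drawn up with earlier results of these arrays known and is no independent evidence of its direction.

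In the pigment epithelium list, miR-204 and miR-211 had changes of -0.33 ± 0.15 (adjusted p = 0.0840) and 0.02 ± 0.17. MiR-184, also a miR of the cornea and lens, had the lowest value of all 159 miRs, -3.56 ± 1.53 (adjusted p = 0.0761), and is described because of that value. Its log2 signal was 5.05 to 7.01 in sham control 2 h, 4.36 to 10.9 in IR 2 h, 2.63 to 10.3 in sham control 24 h and 3.62 to 7.82 in IR 24 h. All 4 groups overlapped, with SDs of 0.67 to 3.21, and the change did not pass, except with the floor at the highest detection limit (-2.60 ± 0.77, adjusted p = 0.0132).

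The contrast left out the rats of the other times (0 h, 48 h and 7d), which give the same 15 miRs in other retinas. These rats did enter the scaling, the floor, the spread of the fit and the detection filter. MiR-376a, miR-138 and miR-378* were tested only through full detection in sham control 7d, and miR-493 only through IR 48 h. With the filter on the 4 groups alone, 121 miRs were tested and 11 changed, all among the 15. At 48 h the IR effect of all 15 had the sign of the change, and 9 of the 15 passed both thresholds at that time (13.8% of the 159 passed). At 7d all 15 again had that sign, and 12 passed (18.2% of the 159). The falls among these 12, miR-376a, miR-30e*, miR-148b-3p and miR-138, were detected on no IR 7d array. Their effects at 7d depend on the floor and are not measured sizes. The falls that passed at 48 h, miR-376a and miR-30e*, were each detected on 1 IR 48 h array. MiR-376a and miR-138 at 7d, and miR-493 at 48 h, are no independent support. The group in which they are high at that time is the one that brought them into the test. The share of all 159 miRs with the sign of their own change was not counted. MiR-21 had an effect of 2.20 ± 0.16 at 48 h and 1.23 ± 0.16 at 7d, and miR-146b of 0.80 ± 0.12 and 0.50 ± 0.12, so that miR-146b stayed under 2-fold at each time. At 0 h the effects of both were near 0 (0.04 ± 0.16 for miR-21 and 0.00 ± 0.12 for miR-146b).

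The other rises were not absent at 0 h. At that time 14 of the 15 effects had the sign of the change, and 4 passed (6.92% of the 159): let-7d* at 1.58 ± 0.55, miR-291a-3p at 2.02 ± 0.46, miR-493 at 2.13 ± 0.42 and miR-378* at 1.05 ± 0.31. MiR-328 and miR-347 had effects of 0.99 ± 0.27 (adjusted p = 0.00600) and 1.00 ± 0.20 (adjusted p = 0.000234) at 0 h, just below 2-fold. For these 6 miRs the effect at 2 h, from -0.75 to 0.99, was below that at 0 h, and that difference was not tested. The brightness of IR minus sham control arrays was -1.06 at 0 h, 0.04 at 2 h, -2.15 at 24 h, -1.19 at 48 h and -2.58 at 7d, so 2 h was the only time at which the IR arrays were not dimmer. MiR-539, miR-206, miR-672 and miR-466b passed with a rise at each of the 5 times, with effects at 0 h of 2.23, 2.04, 1.71 and 1.52.

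**Figure D5:**
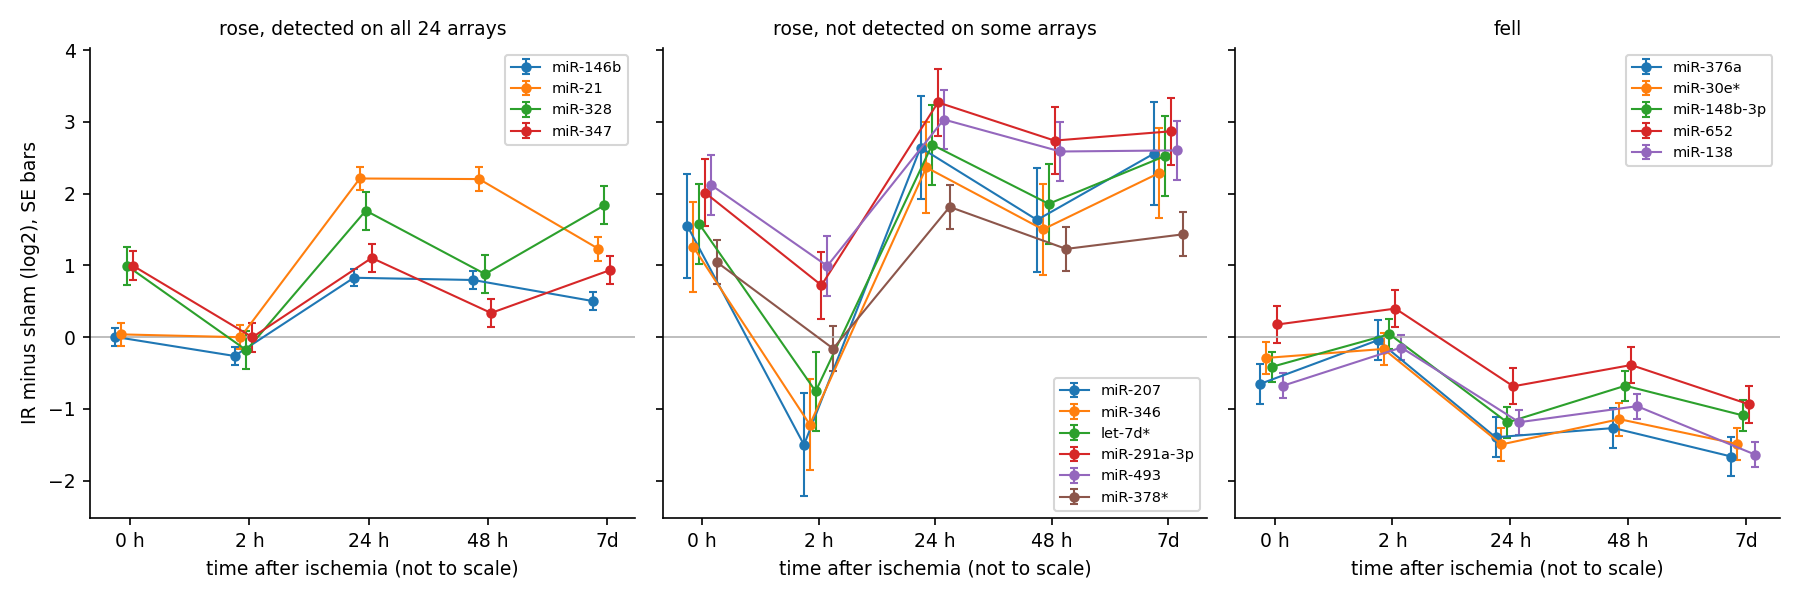
IR minus sham control on the log2 scale (points, SE bars, 6 arrays per group) at the 5 times of the series for the 4 rises detected on all 24 arrays (left), the 6 other rises (middle) and the 5 falls (right), whose changes from 2 h to 24 h are above 0 under normexp, where none passes and the median of all 159 is 0.81. MiR-21 and miR-146b are near 0 at 0 h and 2 h, while the middle group has effects of 1.05 to 2.13 at 0 h and a low at 2 h.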

How the data were processed

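Total RNA of whole retina from 24 rats was labeled with Cy3 and hybridized to 1-colour Agilent rat miR arrays, and the authors extracted the spots with Agilent Feature Extraction. The deposited intensities are background-subtracted and not normalized between arrays, and the deposited files flag whether a miR was detected. The total signal sums the probes of a miR. Probe positions follow rn4. The authors also deposited log2 values scaled per chip to the 75% quantile in GeneSpring, used only as an alternative.

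Signals were divided by the array's 75th percentile, computed from 57 miRs called detected on every one of the 60 arrays, raised to a floor of 6.20 signal units (2.63 on the log2 scale) and taken to log2. Of 350 rat miRs, 233 were detected on at least 1 of the 24 arrays, and the 159 detected on all 6 arrays of at least 1 of 10 groups were tested. All 60 arrays entered 1 fit in limma 3.58.1 (R 4.3.3), with contrasts of group means. A miR was called at a 2-fold difference with p no higher than 0.05 after Benjamini-Hochberg adjustment over the 159. The fit was tested on simulated data. Exact permutation tests and figures used Python 3.11.15, scipy 1.17.1 and matplotlib 3.10.9.

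The members, lists and tests were chosen with earlier results of these data known. Named miRs are the called miRs (all those detected on every array, otherwise the 6 largest each way), the 6 largest effects at 2 h, the 3 called at 24 h with the smallest change among those detected throughout, and the 2 best detected of each list. No spot of the 24 arrays was saturated. No 2 arrays held equal values (SD of log2 differences at least 0.27; median 0.48 within groups). Precision is limited by the number of arrays. Alternatives covered the summary of probes, background, scaling, floor, filter, samples, replicate block, slide, scan day, brightness, prior, threshold, the authors' table and leaving out each array. Sequences came from RefSeq through matched names.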

Additional observations from a re-analysis of the deposited data

Results flagged for a closer look

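The change of the IR effect from 2 h to 24 h passed an adjusted p of 0.05 for 17 of the named miRs. Of these, 15 were named because they were called for this change, so the count was set by the choice of miRs. Of all 159 tested miRs, 38 passed that adjusted p. On the log2 scale the changes were 2.21 for miR-21, 1.09 for miR-146b, 1.95 for miR-328, 1.11 for miR-347, 4.14 for miR-207, 3.58 for miR-346, 3.44 for let-7d*, 2.55 for miR-291a-3p, 2.04 for miR-493, 1.97 for miR-378*, 0.80 for miR-20a and 0.32 for miR-29a. They were -1.35 for miR-376a, -1.33 for miR-30e*, -1.23 for miR-148b-3p, -1.08 for miR-652 and -1.04 for miR-138. Of these 5, only miR-652 was detected on any IR 24 h array, and for the other 4 the fitted value depends on the floor, gives no bound on the fold and was 0 with the floor at the highest detection limit.

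In 6 of 95 groups of 6 values examined, 1 array stood apart from the other 5, where chance gives about 1 in 20. In IR 2 h, replicate 2 was high for miR-328 (8.59 on the log2 scale) and for miR-378* (4.80, not detected), and replicate 5 was low for miR-148b-3p (4.08). In IR 24 h, replicate 4 was high for miR-146b (6.55) and replicate 3 low for miR-652 (4.55, not detected). In sham control 24 h, replicate 1 was high for miR-539 (5.23).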

How the results depend on the processing

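The change of miR-21 kept its direction and both thresholds under every alternative tried except no scaling between arrays (0.03). With each array left out in turn, 13 to 22 miRs changed their IR effect (6 to 9 had an effect at 2 h, 25 to 34 at 24 h, 17 to 20 differed between IR times and 0 to 1 between sham control times), and the IR minus sham control difference was -10.7 to 8.07 detected miRs at 2 h, -59.97 to -39.4 at 24 h, and in brightness -0.13 to 0.23 and -2.26 to -1.98. The counts below are given in the order change of the effect, effect at 2 h, effect at 24 h, and IR 24 h against IR 2 h. They were 4, 2, 63 and 3 with normexp, 142, 4, 136 and 124 with no scaling (3 for sham control), 5, 3, 8 and 5 with the floor at the highest detection limit, 27, 13, 45 and 32 with all miRs tested, 4, 2, 8 and 2 for miRs detected on all 24 arrays, 2, 2, 6 and 2 for those detected on all 60, and 51, 13, 68 and 45 in the authors' table (1 for sham control). By adjusted p alone the change passed for 38, the effect at 24 h for 96, the IR times for 75 and the sham control times for 6. With brightness as a covariate 4, 14 and 4 miRs passed for the change, the effect at 24 h and the IR times. The change passed for 23 with the percentile over all miRs and for 32 with quantile normalization, which gave 46 at 24 h. A filter on the 4 groups, or a fit of the 24 arrays alone, each gave 5 at 2 h, 19 at 24 h and 10 between IR times. The IR times gave 31 with a floor of 1 and 11 with means over probes, and slide as a block gave 4 at 2 h.

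With no scaling the median over the 159 miRs moved to -2.16 for the change and -2.03 for the effect at 24 h. Above that median but below 0 were the change of miR-146b (-1.10), miR-328 (-0.24), miR-347 (-1.08), miR-493 (-0.11) and miR-378* (-0.21), and the effect at 24 h of miR-672 (-0.49), miR-466b (-0.51), miR-20a (-0.94), miR-328 (-0.39), miR-347 (-1.05) and miR-378* (-0.34). With normexp the medians moved to 0.81 and 0.87. The sign then turned for the change, with no adjusted p passing, of miR-376a (1.02), miR-30e* (0.97), miR-148b-3p (1.00), miR-652 (0.46) and miR-138 (1.03), and for the effect at 24 h of miR-138 (1.06), miR-148b-3p (1.02), miR-30e* (0.98) and miR-376a (1.04). With brightness as a covariate the effect at 24 h was -0.27 for miR-207 and -0.37 for miR-346. The cause was not tested.

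Correlations of same-numbered arrays ran from -0.39 to 0.62. All 6 were over 0 in 2 of 6 pairs of groups and over 0.1 in 0, the limit used here, so the numbers were not taken as a pairing. With the replicate number as a block, 18 miRs changed their effect, including all 15.

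Detection limits the result on dim arrays, since 40 of 159 tested miRs were detected on no IR 24 h array, and their signal there is a bound.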
